A study of Mus musculus with 20 samples.

Results

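Endothelial cells line every blood vessel, and their form follows the organ. Liver sinusoids are lined by open, fenestrated scavenger endothelium that takes waste molecules from the blood through receptors such as the stabilins, while fat is supplied by closed capillaries. The 10 genes described here are Stab1, Stab2, Lyve1 and Clec4g, which are markers of sinusoidal endothelium in liver textbooks, and Vwf, Flt1, Kdr, Pecam1, Cdh5 and Tek, which are markers of capillary, larger-vessel or all blood endothelium. They were chosen by gene symbol, and all 10 were found among the 40440 entries of the gene table that were kept. The question was how sinusoidal and capillary markers are distributed over liver and fat, and whether they differ after fat removal.

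Bulk RNA was sequenced from male C57BL/6J mice that were operated on at 8 to 9 months of age. In 1 arm the epididymal visceral adipose tissue (VAT) was taken out, in the other the abdomen was only cut open (sham), with the fat pads left in place. All mice ate regular chow before and a high-fat diet after surgery, for a time the labels do not give, and no unoperated or chow-fed group is among the libraries. The 4 groups of 5 libraries were sham liver, VAT removed liver, sham subcutaneous adipose tissue (SAT) and VAT removed SAT. The labels do not say whether libraries of a group came from separate mice, or whether liver and SAT libraries with the same number came from 1 mouse, so the p-values measure the spread between these libraries, and the tissue tests treat them as independent.

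Total counts ran from 20307159 to 43618452 per library, and no pair of libraries held identical counts. The tissue labels matched their markers. CPM are counts scaled to library size by the TMM method over all 20 libraries. Alb, the albumin gene of hepatocytes, had 38503 to 66174 CPM in liver against 3.10 to 25.6 CPM in SAT. Adipoq, which adipocytes secrete as a hormone, had 816 to 1955 CPM in SAT against 0.421 CPM at most in liver. Within SAT, the sham libraries were not alike. Sham SAT libraries 3 and 4 stood apart through B cell and lymph node genes, whose 8 listed genes summed to 500.4 CPM in library 4 and to between 7.08 and 19.0 CPM in sham SAT libraries 1, 2 and 5. Ms4a1, a B cell gene, had 53.2 and 58.0 CPM in libraries 3 and 4 and 0.900 CPM at most in the other 3. Results that rest on these libraries are given with and without them. In whole tissue, fewer cells of a type and less RNA per cell cannot be told apart.

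Promoter sequences of 4 members are shown so that the only members called higher in liver, Stab2 and Clec4g, can be read beside a pair of VEGF receptor genes that were higher in SAT, Flt1 by a wide and Kdr by a narrow margin. Each is the stretch just before the annotated gene start on the gene's own strand, from RefSeq (GRCm38.p6), read 5′ to 3′. Capitals mark GGAA, the core letters of ETS factor sites, and GATA, the core letters of GATA factor sites, on either strand (TTCC and TATC when on the other one; the 2 can overlap only as GATATC). Both factor families are known regulators of endothelial genes, and GATA4 is known for its role in liver sinusoidal endothelium. RefSeq windows were matched for 6 of the 10 members, which were Stab1, Stab2, Clec4g, Flt1, Kdr and Tek.
Stab2: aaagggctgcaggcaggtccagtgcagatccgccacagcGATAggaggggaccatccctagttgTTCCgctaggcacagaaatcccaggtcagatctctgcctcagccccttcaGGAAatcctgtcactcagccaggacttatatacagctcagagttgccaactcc
Clec4g: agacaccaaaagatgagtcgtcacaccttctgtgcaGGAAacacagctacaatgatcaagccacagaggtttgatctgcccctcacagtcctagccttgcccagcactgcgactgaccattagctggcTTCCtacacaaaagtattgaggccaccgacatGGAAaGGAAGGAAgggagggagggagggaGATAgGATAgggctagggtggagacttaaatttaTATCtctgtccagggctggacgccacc
Flt1: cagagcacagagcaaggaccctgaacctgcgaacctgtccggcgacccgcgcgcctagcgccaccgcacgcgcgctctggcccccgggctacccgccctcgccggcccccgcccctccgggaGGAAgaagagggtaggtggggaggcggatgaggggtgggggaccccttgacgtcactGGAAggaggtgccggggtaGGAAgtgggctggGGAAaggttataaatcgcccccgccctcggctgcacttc
Kdr: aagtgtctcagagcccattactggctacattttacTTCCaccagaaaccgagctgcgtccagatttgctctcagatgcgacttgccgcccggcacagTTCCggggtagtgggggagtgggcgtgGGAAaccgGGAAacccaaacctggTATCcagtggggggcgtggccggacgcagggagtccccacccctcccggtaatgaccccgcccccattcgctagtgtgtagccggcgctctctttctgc

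Stab2 (chr10:87008026-87008192, minus strand) held 2 GGAA and 1 GATA in 167 bases, and of the table's 32851 windows cut to that length 56.5% held at least as many GGAA and 43.9% held a GATA. Clec4g (chr8:3720652-3720901, minus strand) held 5 GGAA and 3 GATA in 250 bases, and 18.0% of windows held at least as many GGAA and 9.62% at least as many GATA. Flt1 (chr5:147726012-147726261, minus strand) held 4 GGAA and 0 GATA in 250 bases, and 33.4% of windows held at least as many GGAA and 53.6% a GATA. Kdr (chr5:75978459-75978705, minus strand) held 4 GGAA and 1 GATA in 247 bases, and 32.5% of windows held at least as many GGAA and 53.3% a GATA. These are matches of letters, and no binding was measured.

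Per length of transcript, the members had a different order in liver and in SAT. Levels between genes are compared here as RPKM, the CPM divided by the summed length of a gene's exons in kilobases. In sham livers the scavenger receptor gene Stab2 came first at 18.3 ± 2.97 RPKM (SD, n = 5) and its relative Stab1 second at 15.6 ± 1.83 RPKM. Cdh5, which encodes the adhesion molecule VE-cadherin of endothelial junctions, followed at 13.4 ± 2.31 RPKM. Clec4g, a C-type lectin gene of liver sinusoidal endothelium, stood at 12.1 ± 2.10 RPKM. From Stab2 down to Clec4g, neighbours in this order differed by less than the larger SD of the pair.

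Lower in the sham livers stood Kdr, the main VEGF receptor gene, at 9.42 ± 0.718 RPKM, and the hyaluronan receptor gene Lyve1 at 6.99 ± 2.09 RPKM. Pecam1, an adhesion molecule of endothelium, platelets and leukocytes, had 5.11 ± 1.03 RPKM, and Tek, the receptor of the angiopoietins, 3.89 ± 0.393 RPKM. Flt1, a VEGF receptor gene whose soluble form traps VEGF, and Vwf, the clotting protein of larger vessels, came last at 2.20 ± 0.306 and 2.07 ± 0.247 RPKM and did not differ beyond their spread. The order of all 10 was the same in VAT removed livers, from Stab2 at 22.9 ± 3.14 RPKM to Vwf at 1.96 ± 0.724 RPKM.

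In sham SAT, Cdh5 led at 61.6 ± 15.8 RPKM, followed by Pecam1 at 29.7 ± 7.33 RPKM and Stab1 at 21.4 ± 4.77 RPKM. Kdr, Lyve1 and Tek lay close together at 13.9 ± 2.57, 13.5 ± 5.48 and 11.9 ± 3.73 RPKM, within their spread. Flt1 had 8.68 ± 2.05 RPKM and Vwf 6.85 ± 1.57 RPKM. Stab2 and Clec4g came last at 2.19 ± 3.11 and 0.181 ± 0.159 RPKM. The Stab2 mean rests on libraries 3 and 4, at 3.02 and 7.32 RPKM, while the other 3 had 0.256, 0.171 and 0.194 RPKM. After VAT removal the first 4 places and the last 2 were held by the same genes, and Lyve1, at 9.27 ± 1.71 RPKM, came eighth, below Tek at 13.9 ± 1.39, Flt1 at 11.6 ± 1.50 and Vwf at 9.43 ± 1.89 RPKM.

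The sinusoidal markers held a larger share of the members' RNA in liver than in SAT. Stab1, Stab2, Lyve1 and Clec4g together made up 59.5% ± 3.30 (SD, n = 5) of the summed RPKM of the 10 members in sham livers and 60.7% ± 2.55 in VAT removed livers. They made up 22.1% ± 5.51 in sham SAT and 17.0% ± 1.91 in VAT removed SAT. The lowest liver library, at 55.8%, was above the highest SAT library, at 29.2%. In SAT most of this share was Stab1 and Lyve1. Stab2 and Clec4g alone gave 34.2% ± 5.00 and 34.1% ± 2.30 in the liver groups, 1.45% ± 1.90 in sham SAT and 0.255% ± 0.0835 in VAT removed SAT. Sham SAT libraries 3 and 4, at 2.35% and 4.38%, carried the sham mean. The other 3, at 0.207%, 0.173% and 0.112%, lay within or below the VAT removed range of 0.182% to 0.390%. The sum of the 10 members was 89.1 ± 8.41 RPKM in sham livers and 169.9 ± 29.9 RPKM in sham SAT.

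**Figure D1:**
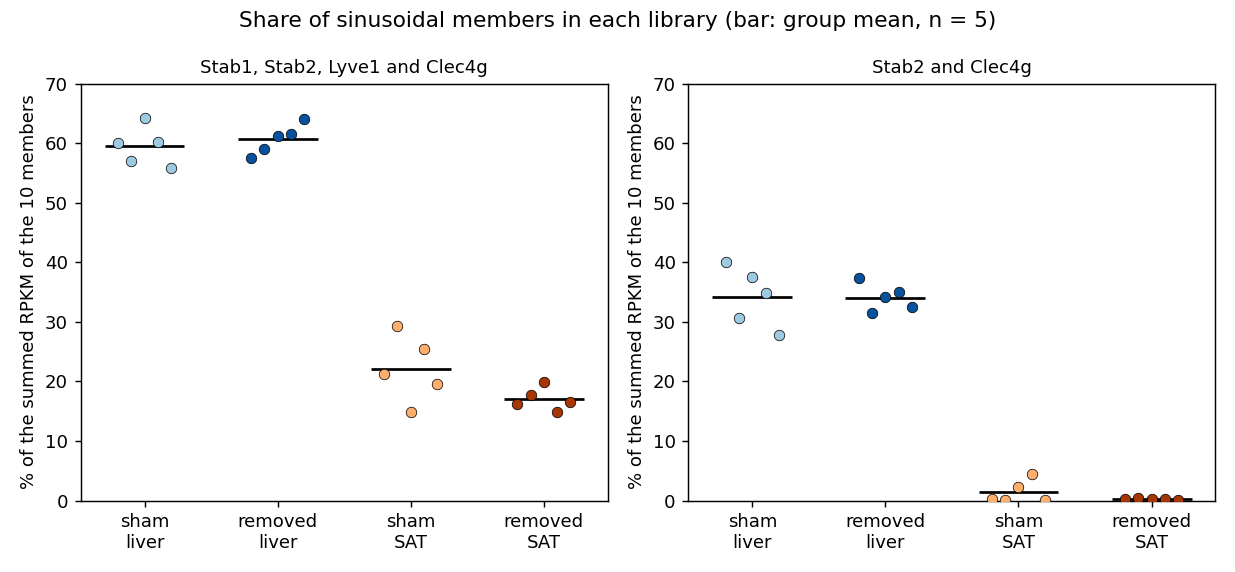
Share of sinusoidal members in the summed RPKM of the 10 members, in percent, with one point per library in the 4 groups and a bar at the group mean. For Stab1, Stab2, Lyve1 and Clec4g (left) liver libraries sit at 55.8% or above and SAT libraries at 29.2% or below; for Stab2 and Clec4g alone (right) SAT libraries reach 4.38% at most.

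Compared gene by gene, Stab2 and Clec4g had higher CPM in liver, and in the sham groups the other 8 members had higher CPM in SAT. In the sham groups edgeR's quasi-likelihood test, with p adjusted by Benjamini and Hochberg over all 19954 genes tested, called 2 members higher in liver and 8 higher in SAT. Of all genes tested, 30.6% were called higher in liver and 36.5% higher in SAT, so a call by itself is common between these tissues. The members' median log2 difference was -1.28 (liver minus SAT), beside -0.11 over all genes. In the VAT removed groups, which are other libraries, 2 members were called higher in liver and 7 in SAT, with 32.2% and 33.0% of all genes called in those directions.

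Stab2 (chr10:86841198-87008025, minus strand) encodes stabilin-2, which clears hyaluronan from the blood. In sham livers 1 to 5 it stood at 174, 139, 175, 187 and 127 CPM, and in sham SAT 1 to 5 at 2.24, 1.50, 26.4, 64.1 and 1.70 CPM. All 5 livers lay above all 5 SAT libraries, and SAT itself split, with libraries 3 and 4 more than 10 times as high as the other 3. The log2 difference, liver minus SAT, was 3.06 ± 0.76 (SE; adjusted p = 0.00144, edgeR) and 6.41 ± 0.28 without SAT libraries 3 and 4. In the VAT removed groups livers lay between 169.9 and 224 CPM and SAT between 2.68 and 5.64 CPM, a log2 difference of 5.83 ± 0.87.

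Clec4g (chr8:3707064-3720651, minus strand) had the largest log2 difference of the 10 members. Sham livers stood at 31.2, 23.4, 33.3, 35.5 and 25.5 CPM, and sham SAT at 0.243, 0.187, 1.05, 0.625 and 0.122 CPM. The SAT values rest on 10, 9, 42, 25 and 4 reads, so they carry a large counting error. The log2 difference was 6.05 ± 0.43 (adjusted p = 2.46e-10, edgeR), and 7.23 ± 0.38 without SAT libraries 3 and 4, which again were the highest of their group. After VAT removal it was 7.27 ± 0.47, with 3 to 13 reads in each SAT library.

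Stab1 (chr14:31139013-31168641, minus strand), which encodes stabilin-1 and is also expressed by tissue macrophages, did not follow Stab2. Sham livers had 132, 154, 165, 181 and 171 CPM and sham SAT had 243, 223, 136, 237 and 262 CPM. SAT was the higher tissue except for library 3, which fell among the livers. The log2 difference was -0.45 ± 0.14 (adjusted p = 0.00691, edgeR), and -0.65 ± 0.11 without SAT libraries 3 and 4. In the VAT removed groups it was -0.33 ± 0.14 (adjusted p = 0.0428), a call lost without VAT removed liver library 1, 2, 3 or 5 or VAT removed SAT library 2, 3 or 5, at adjusted p up to 0.113, and with no filter on low counts, at 0.0526.

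Lyve1 (chr7:110850607-110863239, minus strand), which is found on lymphatic and liver sinusoidal endothelium and on some macrophages, was also called higher in SAT in the sham groups. Sham livers had 9.99, 20.2, 22.6, 24.6 and 24.5 CPM and sham SAT had 35.8, 57.5, 15.1, 39.3 and 49.2 CPM. Again SAT library 3 was the exception and lay among the livers. The log2 difference was -0.95 ± 0.32 (adjusted p = 0.0134, edgeR), and -1.27 ± 0.30 without SAT libraries 3 and 4. Between the VAT removed groups the tissues overlapped, at 11.2 to 36.6 CPM in liver and 22.3 to 35.1 CPM in SAT, and the log2 difference was -0.07 ± 0.32 (adjusted p = 0.860).

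The SAT level of macrophage genes is given beside these results, because Stab1 and Lyve1 are not limited to endothelium. The 14 listed macrophage genes summed to between 371 and 876 CPM in sham livers and to between 552 and 1263 CPM in sham SAT. Mrc1, a mannose receptor of both macrophages and liver sinusoidal endothelium, had its lowest sham SAT value, 98.4 CPM, in library 3, where Stab1 and Lyve1 were lowest too, against 162 to 278 CPM elsewhere in that group. F13a1, a macrophage gene, was also lowest there at 70.8 CPM, against 104 to 237 CPM. Of the 14 listed macrophage genes, Timd4, Marco and Cd5l went the other way, at 17.9, 35.9 and 4.01 CPM in library 3. In sham SAT libraries 1, 2 and 5 they reached 6.54, 2.16 and 0.827 CPM at most. The part of macrophages in the levels of Stab1 and Lyve1 was not tested. Clec4f, a marker of liver macrophages, was at 0 counts in all 5 sham SAT libraries.

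In the sham groups the adhesion genes had the largest log2 differences in favour of SAT. Pecam1 (chr11:106654217-106750628, minus strand) stood at 25.1, 31.3, 26.2, 37.0 and 39.6 CPM in sham livers and at 152, 121, 210.1, 218 and 222 CPM in sham SAT, a log2 difference of -2.54 ± 0.17. Cdh5 (chr8:104101625-104144511, plus strand) stood at 46.9, 53.3, 47.8, 65.1 and 67.7 CPM in sham livers and at 274, 184, 237, 237 and 363 CPM in sham SAT, a log2 difference of -2.21 ± 0.18. The tissues did not overlap in either gene. After VAT removal the log2 differences were -2.50 ± 0.17 for Pecam1 and -2.21 ± 0.18 for Cdh5, and Flt1 and Vwf, given below, then exceeded Cdh5.

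Among the receptors of growth factors, Flt1 and Tek had a wide gap between the tissues and Kdr a narrow one. Flt1 (chr5:147561604-147726011, minus strand) lay between 25.5 and 35.1 CPM in sham livers and between 99.3 and 166 CPM in sham SAT, a log2 difference of -1.98 ± 0.15. Tek (chr4:94739289-94874976, plus strand) lay between 16.3 and 20.7 CPM and between 38.2 and 76.6 CPM, a log2 difference of -1.62 ± 0.18. Kdr (chr5:75932827-75978458, minus strand) lay between 79.1 and 94.8 CPM and between 94.0 and 151 CPM, with the highest liver just above the lowest SAT library, and its log2 difference was -0.56 ± 0.12 (adjusted p = 0.000538, edgeR). After VAT removal they were -2.31 ± 0.15 for Flt1, -1.87 ± 0.18 for Tek and -0.66 ± 0.12 for Kdr.

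Vwf (chr6:125546774-125686679, plus strand) stood at 33.4, 33.3, 26.9, 34.8 and 37.8 CPM in sham livers and at 78.3, 137, 102, 98.2 and 134 CPM in sham SAT. The tissues did not overlap, and the log2 difference was -1.73 ± 0.21 (adjusted p = 6.03e-07, edgeR). In the VAT removed groups it was -2.26 ± 0.22. VAT removed liver library 2, at 50.1 CPM, had the highest liver value.

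**Figure D2:**
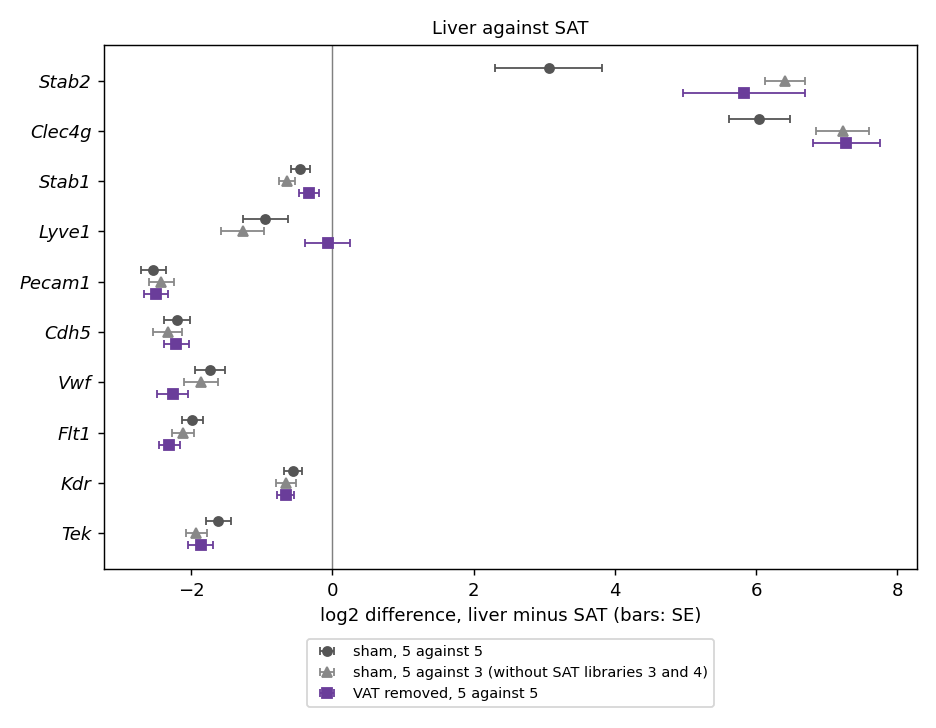
Log2 difference of each member between liver and SAT (x axis, liver minus SAT, with SE bars) in the sham groups, in the sham groups without SAT libraries 3 and 4, and in the VAT removed groups. Stab2 and Clec4g lie on the liver side, at 3.06 and 6.05 in the sham groups, and the other 8 members on the SAT side, with Stab1, Kdr and Lyve1 nearest to 0.

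Other endothelial genes were set beside the members, from lists compiled from textbook knowledge. Of 12 other genes of liver sinusoidal endothelium, 9 were called higher in sham livers than in sham SAT and 1, Mrc1, higher in SAT (edgeR, as above; 9 and 2 without SAT libraries 3 and 4), with a median log2 difference of 1.66. Oit3, a secreted protein of liver sinusoidal endothelium, had a log2 difference of 7.35 ± 0.26 and Gata4, a transcription factor gene, of 7.22 ± 0.79. Rspo3, a Wnt enhancer, had 3.52 ± 0.41. Fcgr2b, a scavenging Fc receptor, did not pass, at 0.15 ± 0.14 (adjusted p = 0.376).

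Of 12 other capillary genes, 10 were called higher in sham SAT and 2, Esm1 and Plvap, higher in sham livers, with a median log2 difference of -4.18. Several were near 0 in liver. Rgcc, a cell cycle regulator, lay between 96.1 and 186 CPM in sham SAT and reached at most 0.139 CPM in sham livers. Gpihbp1, the capillary anchor of lipoprotein lipase, was present in both, at 13.4 to 19.7 CPM in sham livers and 46.9 to 88.9 CPM in sham SAT, with a log2 difference of -1.72 ± 0.18. Plvap, a protein of the diaphragms of endothelial pores, had a log2 difference of 0.67 ± 0.17 and Esm1, a secreted proteoglycan, of 3.41 ± 0.56.

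Of 18 other genes common to blood endothelium, 17 were called higher in sham SAT and 0 in sham livers, with a median of -1.57. The arterial list had 7 of 7 called higher in SAT, with the smallest p for Sox17, a transcription factor gene, at -2.48 ± 0.20. On the venous list 2 of 6 were called higher in SAT, among them Ackr1, a chemokine-binding receptor of venules, at -2.70 ± 0.25, and 1, Nr2f2, a transcription factor gene of venous fate, higher in liver at 0.97 ± 0.11. Without SAT libraries 3 and 4 17 genes common to blood endothelium and 7 arterial genes were called, as with all libraries, and 4 venous genes, beside 3 with all libraries. A list of 13 VEGF and angiopoietin genes, which holds ligands and co-receptors of Flt1, Kdr and Tek and also Flt4, Tie1 and Ptprb from the other lists, had 9 called higher in SAT and 2, Flt4 and Vegfc, higher in liver. Vegfd, a VEGF family ligand, had -3.28 ± 0.20, Angpt1, the activating ligand of Tek, -3.12 ± 0.33, and the co-receptor gene Nrp1 -1.29 ± 0.13.

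In liver no member was called after VAT removal. Of the 10 members, edgeR called 0, adjusted over 17078 genes, of which 0.0% were called. DESeq2 and limma-voom also called 0 members, beside 220 and 3 of the 17078 genes. At an unadjusted p under 0.05 there was 1 of 10, Stab2, beside 9.9% of all genes. The members' log2 differences, VAT removed minus sham, were above 0 for 7 of 10, beside 52.2% of all genes, with a median of 0.14 beside 0.012 over all genes. For 0 of the 10 members did the groups of 5 separate without overlap, beside 2.48% of all genes.

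Stab2 was at 224, 219, 169.9, 217 and 171 CPM in VAT removed livers 1 to 5, set against the sham values of 127 to 187 CPM given above. Libraries 1, 2 and 4 lay above every sham liver, and libraries 3 and 5 within the sham range. The log2 difference was 0.33 ± 0.12 (SE; adjusted p = 0.409 in edgeR), with values above the sham mean in 5 of 5 libraries, and 0.26 to 0.39 when single libraries were left out. Stab1 was at 192, 177, 158, 197 and 186 CPM, a log2 difference of 0.19 ± 0.09 (adjusted p = 0.530), and 4 of 5 libraries were above the sham mean. Clec4g, at 40.1, 21.4, 23.0, 33.0 and 24.2 CPM, overlapped the sham livers fully, with a log2 difference of -0.05 ± 0.18 that took both signs as single libraries were left out (-0.22 to 0.035).

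Lyve1 was at 11.2, 36.6, 22.0, 28.8 and 30.2 CPM in VAT removed livers, a log2 difference of 0.34 ± 0.31 (adjusted p = 0.755). Library 1 was the lowest of its group, as library 1 was of the sham livers at 9.99 CPM. VAT removed liver library 1 also held the highest macrophage sum of its group, 1279 CPM beside a group median of 649.6 CPM, and the highest sum of B cell and lymph node genes, 43.0 CPM beside 13.3 CPM. In sham liver library 1 the macrophage sum was instead the lowest of its group, 371 CPM beside a group median of 645 CPM. Its sum of B cell and lymph node genes was the group median, 8.40 CPM. The part of these cells in the Lyve1 levels was not tested.

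The other members in liver had small differences with wide errors. They were 0.25 ± 0.17 for Cdh5, 0.15 ± 0.14 for Pecam1, 0.13 ± 0.11 for Kdr and 0.10 ± 0.11 for Flt1 on the log2 scale. Tek, at -0.02 ± 0.14, and Vwf, at -0.07 ± 0.21, had differences smaller than their SE, and their signs also depended on single libraries. Among the VEGF and angiopoietin genes 10 of 11 tested were above 0 and 0 were called, with 4 at an unadjusted p under 0.05. They included the co-receptor gene Nrp2 at 0.42 ± 0.15, Vegfa, the ligand of Flt1 and Kdr, at 0.27 ± 0.10, and Vegfb, a ligand of Flt1, at 0.34 ± 0.14, at adjusted p of 0.409, 0.409 and 0.446.

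Other endothelial lists in liver had 0 called genes as well. Of the other sinusoidal genes 4 of 12 were above 0, with a median of -0.06 and 0 at an unadjusted p under 0.05. Of the other capillary genes all 7 tested were above 0, with a median of 0.21 and 1 at an unadjusted p under 0.05, Btnl9 at 0.31 ± 0.12. Of the other genes of blood endothelium 15 of 18 were above 0, with a median of 0.11 and 2 at an unadjusted p under 0.05.

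In SAT the 6 blood vessel members had higher means after VAT removal, and none was called. Clec4g did not pass the filter on low counts, which left 9 members. Of these, edgeR called 0, adjusted over 18530 genes, of which 0.0% were called. DESeq2 and limma-voom also called 0 members, beside 158 and 0 of the 18530 genes. At an unadjusted p under 0.05 there were 3 of 9, Flt1, Vwf and Stab2, beside 10.6% of all genes. Without sham libraries 3 and 4 there were 2 of 9, Stab2 with its sign turned and Lyve1, beside 1670 of the 19035 genes tested then. With all libraries the log2 differences were above 0 for 7 of 9, beside 49.7% of all genes, and the median was 0.23 beside -0.0020 over all genes. Without those 2 sham libraries 6 of 9 were above 0, and the median was 0.17 beside 0.012 over all genes. The groups of 5 separated without overlap for 0 of 9, beside 1.48% of all genes.

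Flt1 was at 108, 99.3, 99.8, 113 and 166 CPM in sham SAT and at 140.2, 132, 159, 168 and 182 CPM in VAT removed SAT. All 5 VAT removed libraries were above 4 of the sham libraries, and sham library 5 lay among them. The log2 difference was 0.43 ± 0.16 (adjusted p = 0.431 in edgeR), and 0.34 ± 0.18 without sham libraries 3 and 4. Vwf was at 147, 199.9, 157, 120.0 and 134 CPM in VAT removed SAT, beside 78.3 to 137 CPM in sham SAT, a log2 difference of 0.48 ± 0.18 (adjusted p = 0.431), and 0.39 ± 0.21 without sham libraries 3 and 4. The highest Vwf value belonged to VAT removed SAT library 2, which also held the highest sum of the 6 listed skeletal muscle genes, 18821 CPM beside a group median of 203 CPM. In sham SAT the highest muscle sum, 1638 CPM, was likewise in the library with the highest Vwf, library 2, at 137 CPM. Sham SAT library 5 had nearly as much Vwf, 134 CPM, with far less of the muscle genes. Acta1, a listed muscle gene, was at 40.6 CPM in library 5 and 498 CPM in library 2. The other listed muscle genes reached 0.821 CPM at most in library 5. The part of muscle in these Vwf levels was not tested.

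The other blood vessel members lay within the spread. Cdh5 stood at 281, 274, 303, 352 and 322 CPM in VAT removed SAT, above the sham mean of 259 CPM in 5 of 5 libraries, but sham library 5 had the highest value of both groups at 363 CPM. Its log2 difference was 0.26 ± 0.17, that of Kdr 0.23 ± 0.13, that of Tek 0.23 ± 0.19 and that of Pecam1 0.12 ± 0.17. Without sham libraries 3 and 4, in which Tek was lowest at 38.2 and 40.9 CPM, the difference of Tek was -0.03 ± 0.13. Stab1 had 203, 232, 266, 213 and 228 CPM in VAT removed SAT, a log2 difference of 0.07 ± 0.16, and of -0.08 ± 0.10 without those libraries.

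Stab2 and Lyve1 in SAT depended on sham libraries 3 and 4 in different ways. Stab2 was at 2.83, 5.64, 2.68, 3.73 and 2.83 CPM in VAT removed SAT and, as given above, at 26.4 and 64.1 CPM in sham libraries 3 and 4 and at 1.50 to 2.24 CPM in the other 3. With all libraries its log2 difference was -2.42 ± 1.05 (adjusted p = 0.459 in edgeR), and -1.17 when sham library 4 alone was left out. Without both it turned to 0.97 ± 0.28 (adjusted p = 0.555). All 5 VAT removed libraries then lay above the remaining 3 sham libraries, at levels of 56 to 179 reads.

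Lyve1 was at 25.2, 22.3, 35.1, 24.4 and 28.3 CPM in VAT removed SAT, below the sham mean of 39.4 CPM in 5 of 5 libraries. Sham library 3, at 15.1 CPM, lay below them all and the other 4 sham libraries, at 35.8 to 57.5 CPM, above them all. The log2 difference was -0.53 ± 0.29 (adjusted p = 0.530), and -0.80 ± 0.17 (adjusted p = 0.555) without sham libraries 3 and 4. Stab2 and Lyve1 were the 2 members of 9 whose groups did not overlap without those libraries, beside 6.16% of all genes.

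Several other genes were high in the same sham SAT libraries. Dnase1l3, an extracellular DNase, stood at 30.3 and 44.8 CPM in libraries 3 and 4 and between 3.32 and 5.81 CPM in the other 3. The clotting factor gene F8 stood at 17.6 and 31.7 CPM beside 4.68 to 8.23 CPM. Dnase1l3 and F8 are both on the list of other liver sinusoidal genes. The lymphatic genes Prox1, a transcription factor, and Mmrn1, a secreted protein, were at 8.85 and 17.9 CPM and at 7.49 and 16.3 CPM in libraries 3 and 4, and reached 0.935 and 1.92 CPM at most in the other 3. Marco, a macrophage scavenger receptor, was at 35.9 and 96.6 CPM beside 1.58 to 2.16 CPM. From the same list, Gata4 had 0.301 and 0.70 CPM in libraries 3 and 4 and 0.0973 CPM at most in the other 3. It had 0.895 CPM in VAT removed SAT library 4. Oit3 had 0.2 and 0.325 CPM in sham libraries 3 and 4 beside 0.145 to 0.365 CPM in the other 3. The Gata4 and Oit3 values in SAT are all near 0. The adipocyte gene Adipoq was lowest in libraries 3 and 4, at 836 and 816 CPM beside 1461 to 1955 CPM in the other 3. The 4 lymphatic genes analysed summed to 23.2 to 95.7 CPM in sham SAT, 23.2 to 36.4 CPM without libraries 3 and 4 and 27.1 to 40.7 CPM in VAT removed SAT, where the B cell and lymph node genes summed to 6.36 to 20.1 CPM. Pdpn and Ccl21a were not analysed here, and the part of other cells in the Stab2 level was not tested.

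**Figure D3:**
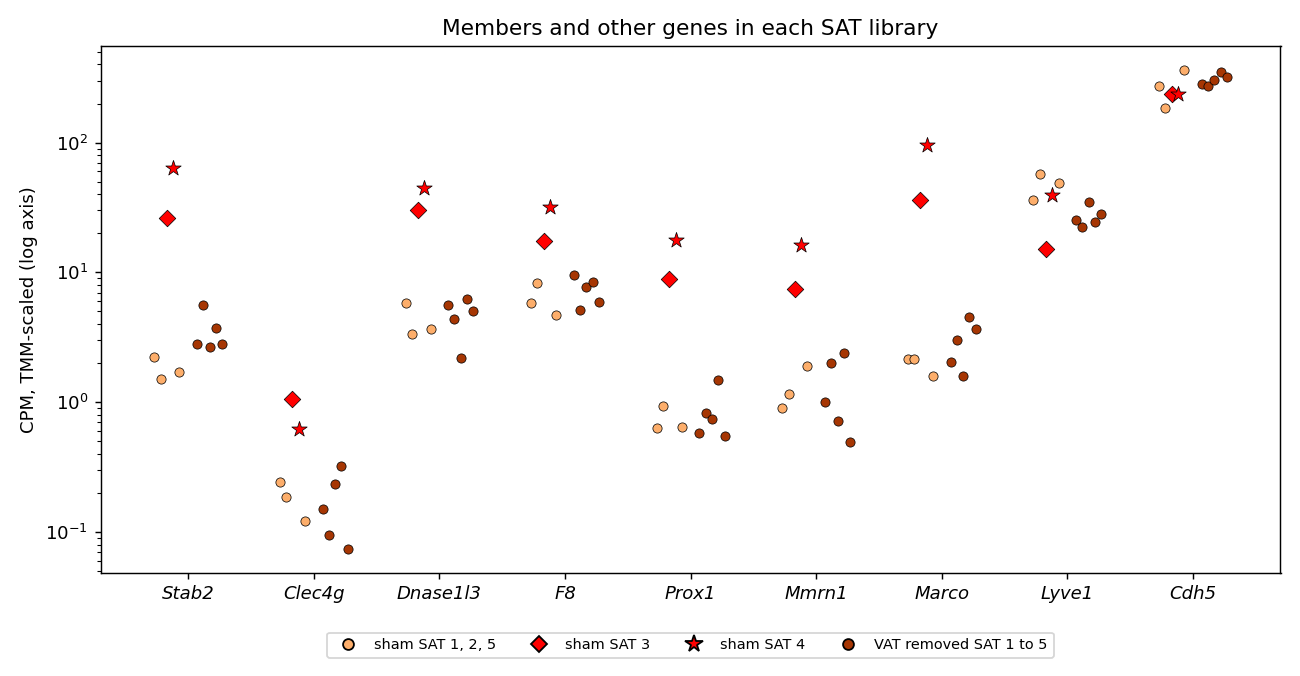
CPM (log axis) of Stab2, Clec4g, Lyve1, Cdh5 and other named genes in each of the 10 SAT libraries, with sham libraries 3 (diamond) and 4 (star) in red. Stab2, Clec4g, Dnase1l3, F8, Prox1, Mmrn1 and Marco are highest in these libraries, while Cdh5, at 237 CPM in both, is not.

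The other lists of blood endothelium in SAT had 0 called genes each. Of the other capillary genes 12 of 12 were above 0, with a median of 0.38 and 4 at an unadjusted p under 0.05. Without sham libraries 3 and 4 these were 10 of 12, 0.30 and 2. The genes with the smallest p were Btnl9, a butyrophilin-like gene of capillaries, at 0.45 ± 0.16, Meox2, a homeobox gene, at 0.29 ± 0.11, and Cldn5, a tight junction gene, at 0.48 ± 0.20, with adjusted p of 0.431, 0.431 and 0.442 in edgeR.

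Of the other genes common to blood endothelium 17 of 18 were above 0 in SAT, with a median of 0.29 and 8 at an unadjusted p under 0.05, and without sham libraries 3 and 4 these were 18, 0.23 and 1. Among them were Ushbp1 at 0.49 ± 0.15, the TGF-beta co-receptor gene Eng at 0.32 ± 0.11 and Ptprb, a phosphatase that restrains Tek, at 0.41 ± 0.15. On the arterial list 6 of 7 were above 0, with 3 at an unadjusted p under 0.05, or 1 without those libraries, and Gja5, a gap junction gene, had 0.50 ± 0.14 (adjusted p = 0.431). On the venous list 4 of 6 were above 0, or 5 of 6 without those libraries, from Selp, an adhesion receptor for leukocytes, at 0.65 ± 0.22 and Ephb4, a receptor of venous fate, at 0.40 ± 0.12 to Vcam1, another such adhesion molecule, at -0.55 ± 0.26 and Sele at -0.65 ± 0.65. Genes of pericytes and smooth muscle, the cells around vessels, were above 0 for 6 of 8 with a median of 0.22, 1 at an unadjusted p under 0.05 (Notch3 at 0.33 ± 0.13) and 0 called. They summed to 809 to 1058 CPM in sham and 878 to 1200.1 CPM in VAT removed SAT, and their part in the endothelial values was not tested. The other sinusoidal genes were split, with 4 of 10 above 0 and a median of -0.10, or 6 of 10 and 0.13 without those libraries.

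**Figure D4:**
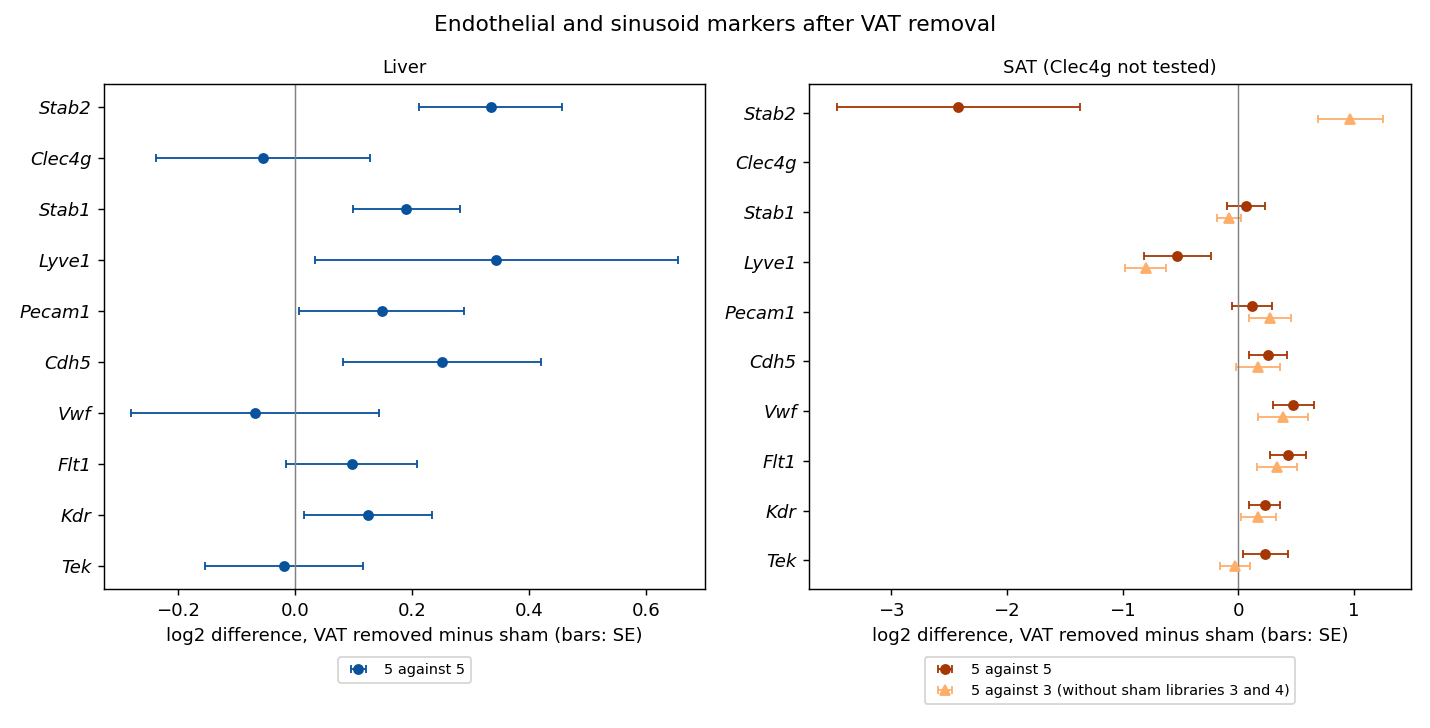
Log2 difference of each member between VAT removed and sham libraries (x axis, with SE bars) in liver (left) and in SAT (right), the latter also without sham libraries 3 and 4. Stab2 in SAT moves from -2.42 to 0.97 when those libraries are left out, while Flt1 and Vwf stay above 0, and none of the differences passes the adjusted threshold.

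**Figure D5:**
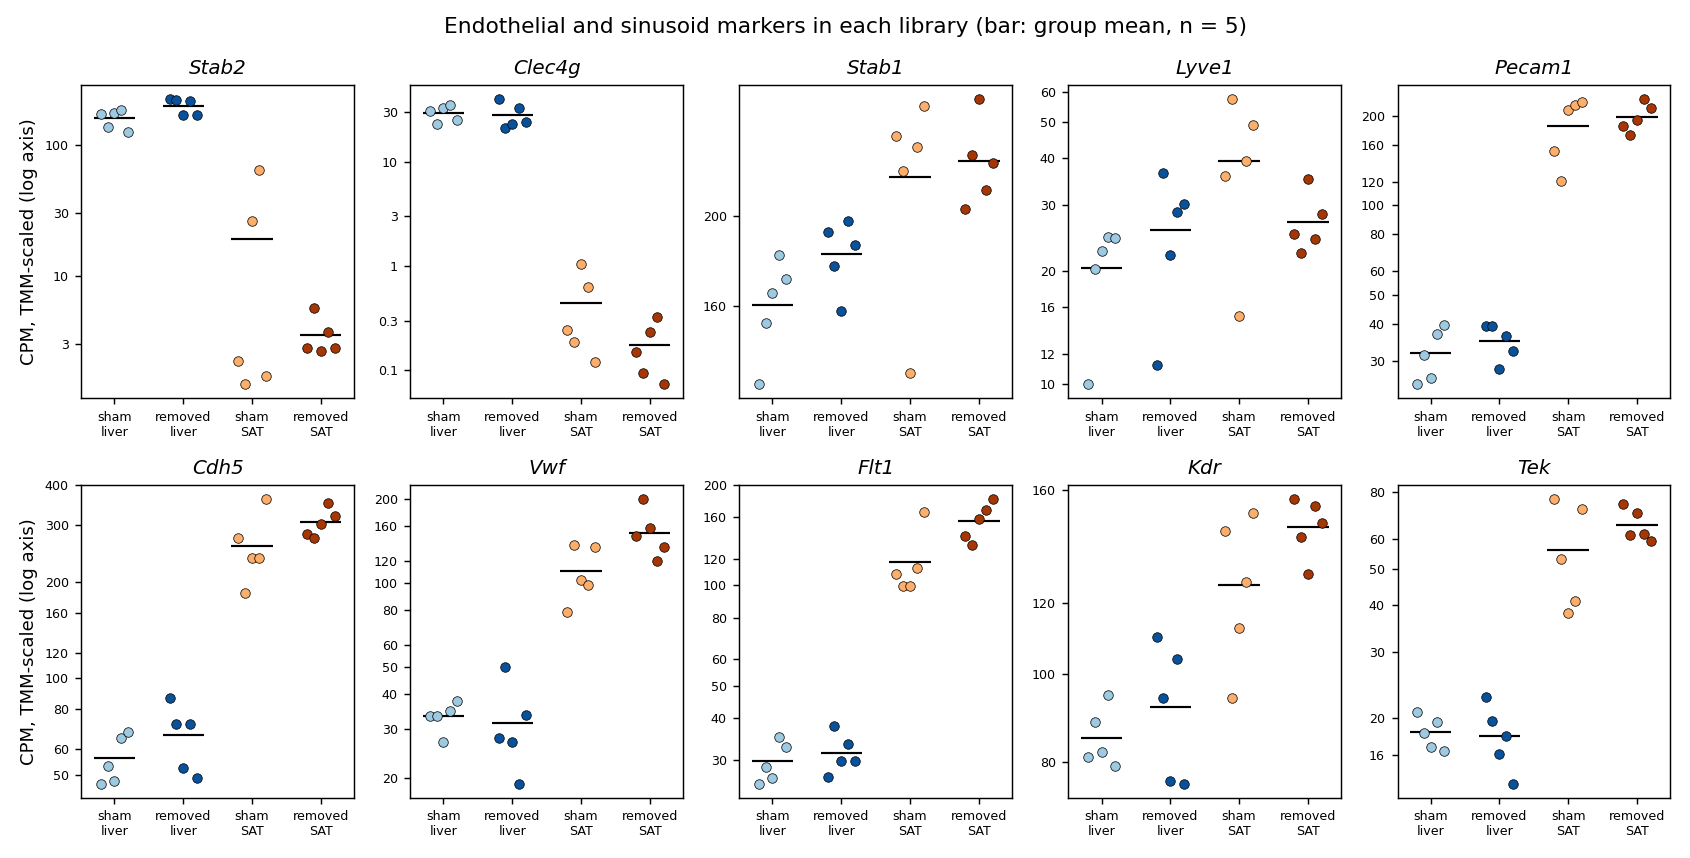
CPM (log axis) of each member in every library of the 4 groups, with bars at the group means (n = 5). Stab2 and Clec4g are far higher in liver, Pecam1, Cdh5, Vwf, Flt1 and Tek do not overlap between liver and SAT, and in every panel the VAT removed and sham libraries of a tissue overlap.

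The response to surgery was not shown to differ between the tissues for any member. In 1 fit of all 20 libraries, edgeR called 0 of 10 members for the difference of response, beside 0.0% of all genes. DESeq2 and limma-voom also called 0 members, beside 124 and 0 of the 19954 genes tested. In edgeR 1 of 10 had an unadjusted p under 0.05, beside 10.1% of all genes. That 1 was Stab2, at 2.77 ± 1.03 (liver response minus SAT response; adjusted p = 0.383), which turned to -0.61 ± 0.29 without sham SAT libraries 3 and 4. Clec4g had 1.23 ± 0.60 (adjusted p = 0.505), and 0.010 ± 0.45 without them. Lyve1 had 0.88 ± 0.45 (adjusted p = 0.526), and 1.16 ± 0.41 without them. The remaining 7 members lay between -0.54 for Vwf and 0.12 for Stab1.

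Ratios within a library, which do not depend on how libraries are scaled, were used to set each marker against Cdh5 as a measure of endothelium. Of 8 such ratios, 0 differed between VAT removed and sham libraries in a two-sided exact permutation test over all assignments of the 10 libraries, whose smallest possible p is 0.00794. Adjusted over 8 ratios, 1 ratio alone could not pass 0.05 in this design even at that p, so the count of 0 says little. Stab2 had more reads than Cdh5 in every liver (counts, not per length), with a mean log2 ratio of 1.51 ± 0.41 (SD, n = 5) in sham and 1.62 ± 0.16 in VAT removed livers (exact permutation p = 0.651, adjusted over the 8 ratios 0.857). The ratio of Stab1 was 1.53 ± 0.16 and 1.49 ± 0.30 in liver, and in SAT -0.23 ± 0.42 and -0.42 ± 0.22. The ratio with the smallest p was that of Lyve1 in SAT, at -2.81 ± 0.82 in sham and -3.51 ± 0.27 in VAT removed libraries (exact permutation p = 0.0952, adjusted 0.730), and without sham libraries 3 and 4 the exact permutation p was 0.0179, the smallest that 56 assignments can give (adjusted 0.143).

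How the members varied together was described by correlating log2 CPM over the 10 libraries of a tissue, which share their depth scaling and both surgery groups. In SAT, Cdh5 ran with Flt1 (Pearson r = 0.88, Spearman rho = 0.92), Kdr (0.86 and 0.81) and Pecam1 (0.69 and 0.62). It ran less with Tek (0.56 and 0.58) and Stab1 (0.33 and 0.33), and its values were 0.15 and 0.10 with Vwf, -0.16 and -0.0061 with Lyve1 and -0.31 and -0.24 with Stab2. The r of Pecam1 was 0.19 without the 2 libraries farthest from the median of Cdh5, so it rests on those, while that of Flt1 was 0.90, that of Kdr 0.69 and that of Stab2 -0.75. Among 13172 genes that averaged 1 CPM or more in SAT, the 5 most like Cdh5 were Tie1, Arap3, Gfod1, Gja4 and Afap1l1, at r from 0.97 to 0.94. They were picked as the highest of 13172 genes over 10 libraries, so an r of this size can come from the choice alone. Tie1 encodes an endothelial receptor related to Tek, and Gja4 an arterial gap junction protein.

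In liver the members' likeness to Stab2 varied with the libraries included. The Pearson r of Stab2 over 10 livers was 0.69 with Kdr (rho 0.77), 0.48 with both Stab1 (0.60) and Cdh5 (0.52), 0.47 with Tek (0.64) and 0.43 with Clec4g (0.44). It was 0.18 with Flt1, -0.0052 with Lyve1 and -0.22 with Vwf. Without the 2 libraries farthest from the median of Stab2 it was 0.73 with Cdh5, 0.68 with Flt1, 0.57 with Kdr, 0.55 with Stab1 and Pecam1 (0.23 with all libraries), 0.47 with Lyve1, 0.24 with Tek, 0.21 with Clec4g and -0.015 with Vwf. Among 12609 genes that averaged 1 CPM or more in liver, the 5 most like Stab2 were Phldb2, Vegfa, Yeats2, Acpp and Grin2b, at r from 0.96 to 0.92. They were picked as the highest of 12609 genes over 10 libraries, so an r of this size can come from the choice alone. Their rho and their r without 2 libraries come from the same libraries and are no separate test. Vegfa, the VEGF ligand, had r = 0.94 and rho = 0.92 with Stab2, and r = 0.92 without the 2 farthest libraries. It lay at 205, 192, 199, 206 and 148 CPM in sham livers and at 248, 245, 205, 236 and 205 CPM in VAT removed livers, and library 5 of the sham group was the lowest in both genes.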

How the data were processed

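Whole-tissue RNA underwent ribosomal RNA depletion before sequencing, per the labels' protocols. The submitters' processing notes name bcl2fastq, STAR 2.5.1a, featureCounts 1.46 (Subread) and the build GRCm38. The annotation and strand setting, and how multi-mapping reads were handled, are not stated in the sources used here. The values deposited by the authors are raw read counts per gene in 20 columns, not normalized. Of 40757 entries, 317 exact repeats were dropped. Gene positions and exon lengths came from GENCODE M21 by symbol, and promoter windows from RefSeq.

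Titles gave the groups. Each tissue had its own fit with edgeR 4.0.16 (R 4.3.3; filterByExpr by group, TMM, robust quasi-likelihood F-test, Benjamini-Hochberg adjustment over all genes, threshold 0.05). Tissue contrasts and the difference of response came from 1 fit of 20 libraries with 4 group means. The SE of a log2 difference comes from the F statistic, and the fits were tested on simulated data. Displayed CPM are scaled over all 20 libraries, counting error matters for Clec4g in SAT, and a ratio added 0.5 to counts before the log2. A likeness is a Pearson r of log2(CPM + 0.5).

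The members and the other gene lists were chosen with earlier results of these data known. All members are named. From each other list, only some of the genes called in a comparison, or among the 3 with the smallest p, are named. That choice was made with the values in view. So were the choices of values by library of other genes, of Fcgr2b between the tissues and of Sele in SAT. Alternatives were DESeq2 1.42.0, limma-voom (limma 3.58.1), RLE and upper quartile normalization, no filter or 1 CPM in 5 libraries, no robust fitting, 1 fit of all libraries, the library number as a block, leaving out each library, and leaving out sham SAT libraries 3 and 4. For the ratios they were a pseudocount of 5, Pecam1 as the denominator and leaving out libraries. For the ratios, the tissue difference after VAT removal and the counts of the other lists, leaving out sham SAT libraries 3 and 4 was added after seeing the data.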

Additional observations from a re-analysis of the deposited data

Results flagged for a closer look

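Of 40 groups of 5 libraries (10 members in 4 groups), 1 held a library far from the others, and chance flags about 1 in 20 groups. Flt1 in sham SAT library 5 stood at 165.7 CPM, while the other 4 sham SAT libraries lay between 99.3 and 113 CPM, so that the gap to its nearest neighbour was 0.795 of the group's range against a critical value of 0.71.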

How the results depend on the processing

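The counts of members called kept their side under every alternative run: 0 in liver, 0 in SAT and 0 for the difference of response, and at least 8 in each tissue contrast. Over all genes, DESeq2 called 220 genes in liver, 158 in SAT and 124 for the difference of response, where edgeR's main fits called 0. In liver edgeR called 27 genes in 1 fit of all 20 libraries, 3 with no filter and 3 with 1 CPM in 5 libraries, and limma-voom called 3. Leaving out single libraries gave 0 to 53 in liver (53 without VAT removed liver library 3), 0 to 1 in SAT and 0 to 3 for the difference. Without sham SAT libraries 3 and 4 the sign turned for Stab1 (-0.077), Stab2 (0.97) and Tek (-0.030) in SAT and for Stab2 (-0.61), Pecam1 (-0.11), Cdh5 (0.094) and Tek (0.028) in the difference of response. That of Pecam1 was also -0.020 with DESeq2 and with RLE, and that of Cdh5 was 0.0067 with upper quartile scaling and 0.012 with the stricter filter. The ratio of Stab1 in liver was 0.033 with Pecam1 as the denominator. Leaving out single libraries gave log2 differences of -0.29 to 0.067 for Vwf, -0.13 to 0.070 for Tek and -0.22 to 0.035 for Clec4g in liver, -0.073 to 0.14 for Stab1 and -0.0070 to 0.20 for Pecam1 in SAT, -0.23 to 0.12 for Lyve1 between VAT removed liver and SAT, and -0.077 to 0.15 for Pecam1 and -0.16 to 0.098 for Cdh5 in the difference of response. Ratios in liver ran from -0.15 to 0.046 for Stab1, -0.049 to 0.20 for Stab2 and -0.11 to 0.46 for Lyve1. The cause of these turns was not tested, and none of these values was called with all libraries either. Upper quartile scaling moved the median of all genes from -0.11 to -0.24 in the sham tissue contrast and from -0.0049 to -0.13 in the other. With the library number as a replicate block 0 members were called in liver and SAT, 10 between the sham tissues and 8 between the VAT removed tissues, where Stab1 was lost (adjusted p = 0.0847). The numbers were not shown to pair libraries: deviations of same-numbered libraries correlated above 0.1 in 4 of 5 pairs in liver and 2 of 5 in SAT, and 3 and 1 of 5 correlated best with their own number. Between liver and SAT 0 of 5 pairs were above 0.1 in either surgery group (r up to 0.097 in sham and 0.037 to 0.099 after VAT removal), while 0 of 5 sham and 5 of 5 VAT removed libraries correlated best with their own number, a hint from the data and not the design.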
